A study of Mus musculus with 10 samples.

Results

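The miR-10, miR-99/100 and miR-125 families are microRNAs of about 22 bases whose 5′ ends, the parts that pair with target messages, are alike within each family. They were followed here in small RNA libraries of mouse E14 embryonic stem cells, a line from blastocysts of strain background 129/Ola. The table holds 1907 mature miRNA entries, and 9 of them were chosen by name, whatever their values: mmu-miR-99a-5p, mmu-miR-99b-5p, mmu-miR-99b-3p, mmu-miR-100-5p, mmu-miR-125a-5p, mmu-miR-125a-3p, mmu-miR-125b-5p, mmu-miR-10a-5p and mmu-miR-10b-5p (the prefix, which marks mouse entries, is left off below). Of these 9 entries, 8 had a count in at least 1 library and 7 passed the filter on low counts, so the tests below cover 7 and not all of the families.

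There were 5 groups with 2 libraries each: wild-type cells (WT), a Dgcr8 knockout (Dgcr8_KO), a Drosha knockout (Drosha_KO), a Dicer knockout (Dicer_KO) and a double knockout of Ago1 and Ago2 (Ago12_KO). All groups were grown on gelatine with serum and LIF, and the labels name no agent that sets groups apart. They do not give the alleles, nor whether a knockout group is 1 clone. Nor do they say that the 2 libraries of a group came from separate cultures, so the spread behind each p-value may be technical. Their descriptions tell the 2 libraries apart by the codes P25 and P33 in WT and C1 and H11 in Dicer_KO, whose meaning is not stated.

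A miRNA gene is transcribed into a long primary RNA, from which the nuclease Drosha and its RNA-binding partner Dgcr8 cut a hairpin. Dicer cuts the hairpin into a short duplex, and an Argonaute protein (Ago1 and Ago2 are members of that family) holds 1 strand of it, from the 5p or the 3p side of the hairpin. miR-125 is the vertebrate counterpart of nematode lin-4, a regulator of developmental timing, and its genes lie with miR-99 or miR-100 and let-7 genes in shared clusters. The miR-10 genes lie in the Hox clusters, which pattern the body axis. In embryonic stem cells the miR-290 family is abundant, and let-7 and miR-125 are known to rise as such cells differentiate.

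The mature 5p sequences are shown first because the families are defined by them and because close copies set a limit on the counts. They are RefSeq sequences of GRCm38.p6, found by name for 9 of the 9 entries (and for 1623 of all 1907), and capitals mark the seed, bases 2 to 8 from the 5′ end.
miR-99a-5p: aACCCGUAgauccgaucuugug
miR-99b-5p: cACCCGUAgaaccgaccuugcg
miR-100-5p: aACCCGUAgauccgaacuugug
miR-125a-5p: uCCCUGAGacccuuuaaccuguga
miR-125b-5p: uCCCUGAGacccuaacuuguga
miR-10a-5p: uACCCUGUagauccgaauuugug
miR-10b-5p: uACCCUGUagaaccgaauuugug

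The 3 entries miR-99a-5p, miR-99b-5p and miR-100-5p share 1 seed, miR-125a-5p and miR-125b-5p another, and miR-10a-5p and miR-10b-5p another. Counted from the 5′ end, miR-10a-5p and miR-10b-5p differ by the single substitution U12A, and miR-99a-5p and miR-100-5p by U16A. From miR-99a-5p to miR-99b-5p there are 4 substitutions (A1C, U11A, U16C and U21C). miR-125a-5p is 24 bases long and miR-125b-5p 22, with an edit distance of 3. The miR-10 and miR-99/100 seeds differ although miR-100-5p and miR-10a-5p are an edit distance of 3 apart over their whole length. How reads that match several entries were assigned is not given in the sources used here, so values of the pair miR-10a-5p and miR-10b-5p, and of the pair miR-99a-5p and miR-100-5p, carry that uncertainty.

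The other arms of 2 hairpins are also among the 9 entries. Their seeds are unlike those of the 5p arms, so the 2 strands of each hairpin would pair with different messages.
miR-99b-3p: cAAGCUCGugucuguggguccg
miR-125a-3p: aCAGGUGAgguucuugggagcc

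In GENCODE M21 on GRCm38, which is the mm10 build named in the submitters' processing notes, Mir99b lies at chr17:17830188-17830257 on the plus strand, in an intron of Spaca6. Mirlet7e follows 94 bases on at chr17:17830352-17830444, in an intron of the same gene. Mir125a follows another 367 bases on at chr17:17830812-17830879, overlapping an exon of Spaca6, and 554 bases separate Mir99b from Mir125a. The 2 miR-10 genes are on different chromosomes: Mir10a at chr11:96317165-96317274, in no other annotated gene, and Mir10b at chr2:74726070-74726137, in introns of Hoxd3 and Hoxd4. Mir100 (chr9:41531425-41531504) and Mir125b-1 (chr9:41581926-41582002) lie in introns of 3110039I08Rik, and Mir99a (chr16:77598936-77599000) and Mir125b-2 (chr16:77646273-77646343) in introns of Mir99ahg. miR-125b-5p is the product of both miR-125b hairpins, which its counts cannot separate.

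The WT libraries held 2357868 and 1943868 counts, those of Ago12_KO 349312 and 229407, of Dgcr8_KO 289539 and 408654, of Dicer_KO 45222 and 37476, and of Drosha_KO 39511 and 40306. Levels are given in CPM, the count divided by the library's total and scaled to 1000000, so a level is a share of the miRNA counts and not an amount per cell. Fewer cells with a miRNA and less of it per cell cannot be told apart. One count was worth 0.424 CPM in the deepest library and 26.7 CPM in the shallowest, and the limit that a count of 0 allows (3 counts) ran from 1.27 to 80.1 CPM. Summed levels of 9 embryonic stem cell markers were 136536 to 147675 CPM in WT, 118022 to 127382 in Drosha_KO, 102735 to 104867 in Dgcr8_KO, 64523 to 72671 in Ago12_KO and 9995 to 11501 in Dicer_KO, with miR-302a-3p, miR-302b-3p and miR-302d-3p at 0 in Drosha_KO and Dicer_KO. Most of the WT sum was miR-295-3p (mean 101528 CPM), and the markers did not move together. By mean, those above WT were miR-290a-3p, miR-291a-3p, miR-292a-3p and miR-294-3p in Drosha_KO. They were miR-290a-3p, miR-291a-3p and miR-294-3p in Dgcr8_KO, and miR-290a-3p alone in Dicer_KO. In Ago12_KO they were miR-290a-3p, miR-292a-3p and the listed miR-302 entries. The other markers of each mutant lay below WT. The summed levels of 6 fibroblast or feeder markers were 2528 to 3436 CPM in WT and 155 to 374 CPM in Dicer_KO. In the other groups they were 3923 to 6227 CPM (Drosha_KO), 2907 to 3026 (Dgcr8_KO) and 1039 to 2105 (Ago12_KO), with miR-214-3p at 0 throughout. Most of each of these sums was miR-143-3p, the only one of these markers above WT in Drosha_KO (means of 5012 and 2851 CPM). In Ago12_KO miR-143-3p (mean 1461 CPM), miR-199a-3p and miR-199b-5p were below WT, while miR-145a-5p and miR-199a-5p were above it. The summed levels of 5 neural markers were 2976 to 3211 CPM in WT, 1569 to 3176 in Drosha_KO, 1454 to 1651 in Dgcr8_KO, 789 to 925 in Ago12_KO and 213 to 464 in Dicer_KO. Those of 5 blood markers were 1351 to 1763 CPM in WT, 8660 to 11290 in Ago12_KO, 4725 to 4773 in Dgcr8_KO, 3498 to 5644 in Drosha_KO and 427 to 597 in Dicer_KO. Those of 4 endoderm, liver and gut markers were 1557 to 1612 CPM in WT, 6816 to 11743 in Ago12_KO, 240.2 to 509 in Dicer_KO, 174 to 405 in Drosha_KO and 190.0 to 223 in Dgcr8_KO. In Ago12_KO nearly all of that last sum was miR-192-5p (6564 and 11451 CPM, against 1412 and 1338 CPM in WT), while miR-194-5p was lower than in WT (45.8 and 113 CPM against 177 and 195 CPM) and miR-122-5p was at 0. Of the blood markers, miR-223-3p and miR-144-3p were at 0 in Ago12_KO, Drosha_KO and Dicer_KO. In Dgcr8_KO both miR-142a strands were above WT, while miR-150-5p was below it (means of 540 and 1066 CPM). Of the neural markers in Drosha_KO, only miR-138-5p was above WT (means of 1872 and 216 CPM). The part of other cell types, of depth or of library preparation in the results below was not tested.

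In WT cells the families were carried by the chromosome 17 cluster. The level of miR-99b-5p was 2056 ± 187 CPM (SD, n = 2), place 58 among all entries by mean, and that of miR-125a-5p was 1640 ± 71.9 CPM, place 63. miR-10a-5p followed at 146 ± 21.9 CPM and miR-99b-3p at 109 ± 0.618 CPM. Lower still were miR-10b-5p (59.8 ± 7.81 CPM), miR-125b-5p (39.4 ± 1.08 CPM) and miR-125a-3p (27.6 ± 4.80 CPM). The 2 entries closest in sequence to miR-99b-5p were near or at the floor: miR-100-5p had 2 counts in WT replicate 1, 1 count in WT replicate 2 and none in the 8 mutant libraries, and miR-99a-5p had no count in any of the 10 libraries. In WT a count of 0 allows at most 1.27 and 1.54 CPM for miR-99a-5p as the reads were assigned, while in Drosha_KO and Dicer_KO the limit lay between 66.3 and 80.1 CPM. The 9 entries together made up 0.408% ± 0.0277 of WT counts, 0.399% ± 0.0611 of those in Ago12_KO, 0.194% ± 0.00382 in Dgcr8_KO, 0.174% ± 0.0241 in Drosha_KO and 0.152% ± 0.0192 in Dicer_KO (SD, n = 2 each).

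**Figure D1:**
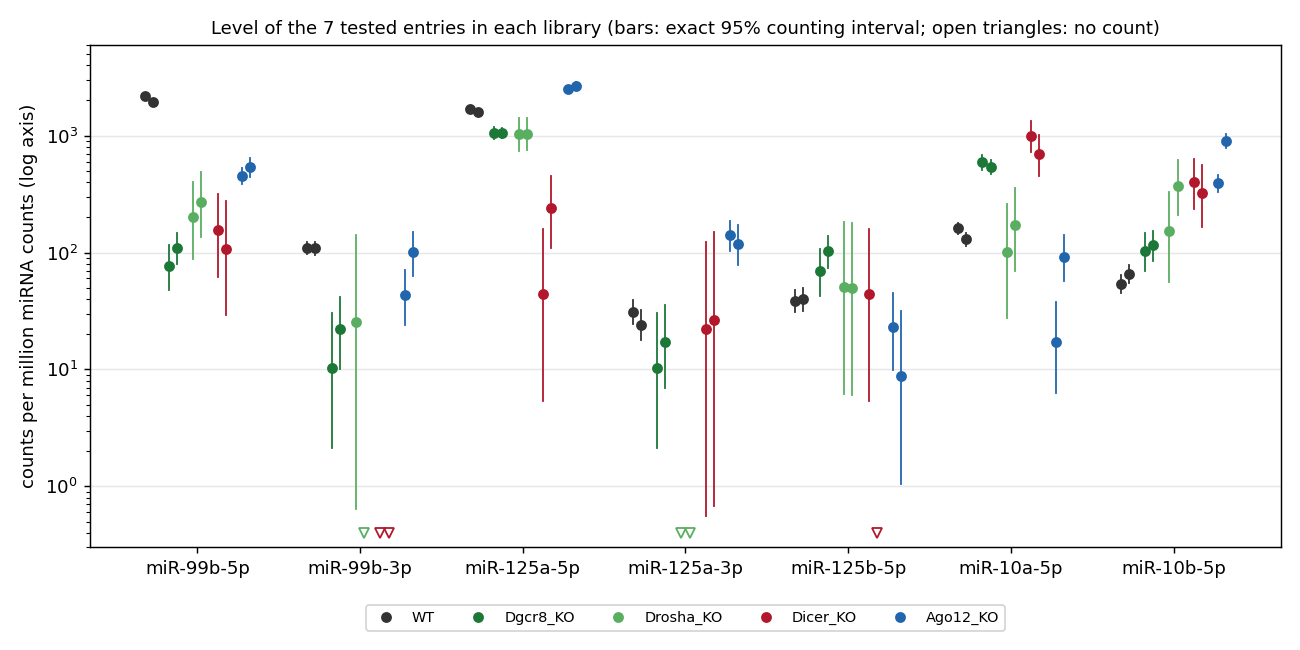
Level of each of the 7 tested entries in every library, in CPM on a log axis, with 1 colour per group, 1 point per library and exact 95% counting intervals as bars; open triangles mark libraries with no count. The WT libraries were the highest of all for miR-99b-5p (1923 and 2188 CPM), while Dicer_KO was highest for miR-10a-5p (694 and 995 CPM) and the replicates of Ago12_KO for miR-125a-3p (117.7 and 140.3 CPM).

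Each mutant was compared with WT to see how these miRNAs depend on the step that was removed. Log2 fold changes and p-values come from edgeR (quasi-likelihood), p-values were adjusted over 481 entries by the Benjamini-Hochberg method, and an adjusted p under 0.05 made a call. The 4 comparisons share the WT libraries, so they are given side by side and not as independent evidence. Since most entries moved, the median log2 fold change of all entries is the base to read them against: for Ago12_KO -0.016, for Dgcr8_KO -0.41, for Drosha_KO -0.87 and for Dicer_KO -2.78. Scaling by TMM moved these medians, in the same order, to -0.66, -0.71, -1.47 and -3.06, and DESeq2's size factors to -0.24, -0.44, -0.75 and -1.67. Raw counts with no scaling for depth, kept as an extreme alternative, put them at -2.88, -3.02, -6.40 and -7.52.

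In Dgcr8_KO 2 of the 7 tested entries rose (miR-10a-5p and miR-125b-5p) and 2 fell (miR-99b-5p and miR-99b-3p), against 32.4% of all entries higher and 41.0% lower. In Drosha_KO 1 rose (miR-10b-5p) and 2 fell (both miR-99b arms), against 26.2% and 31.6%. In Dicer_KO 2 rose (both miR-10 entries) and 3 fell (both miR-99b arms and miR-125a-5p), against 13.3% and 42.6%. In Ago12_KO 2 rose (miR-125a-3p and miR-10b-5p) and 2 fell (miR-99b-5p and miR-10a-5p), against 28.7% and 25.8%. Of these, miR-125a-3p passed the filter only through its Ago12_KO libraries. With 7 entries, nothing is called particular to the families from these counts. The median log2 fold change of the 7 was -0.66 for both Ago12_KO and Drosha_KO, -0.63 for Dgcr8_KO and -0.71 for Dicer_KO.

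**Figure D2:**
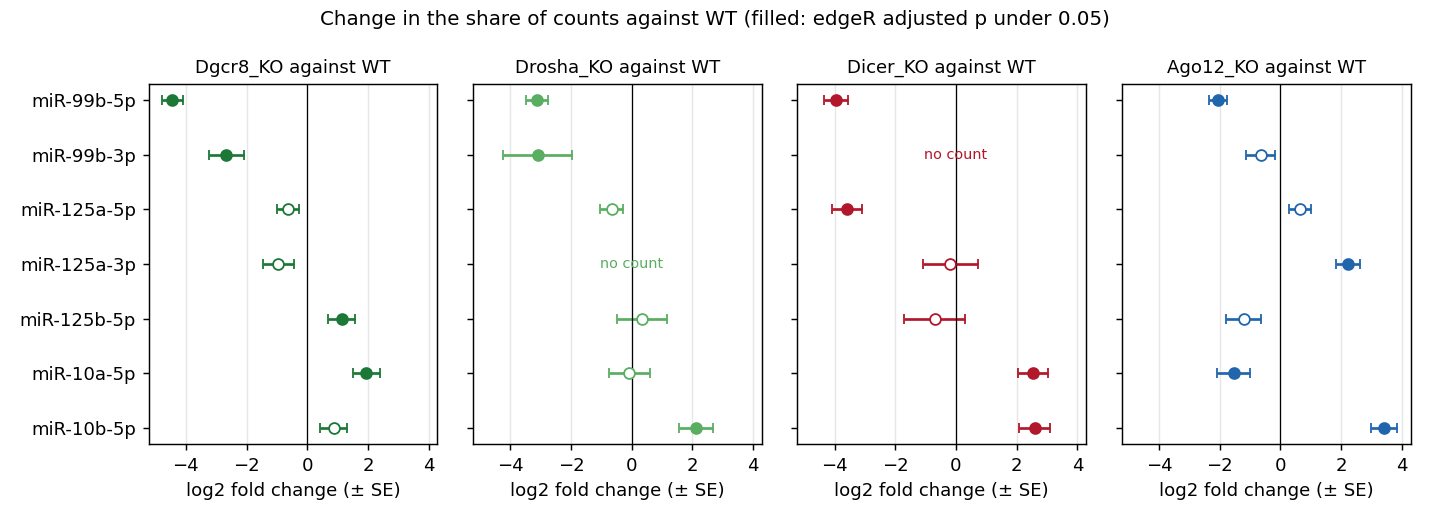
Log2 fold change of each tested entry against WT in the 4 mutants, with bars of 1 standard error from edgeR; filled points passed an adjusted p of 0.05, and entries without a count in the mutant have no point. miR-99b-5p was below WT in all 4 panels, under every scaling, whereas miR-10b-5p was above WT in all 4 with column totals, but below it in Dgcr8_KO, Drosha_KO and Dicer_KO without scaling.

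miR-99b-5p, the 5p strand of the first hairpin of the chromosome 17 cluster, fell in every mutant. Its levels were 2188 and 1923 CPM in WT (5158 and 3739 counts), 455 and 536 CPM in Ago12_KO (159 and 123 counts), 202 and 273 CPM in Drosha_KO (8 and 11 counts), 155 and 107 CPM in Dicer_KO (7 and 4 counts), and 76.0 and 110.1 CPM in Dgcr8_KO (22 and 45 counts). Both WT libraries lay above all 8 mutant libraries. In order of mean level WT was followed by Ago12_KO, Drosha_KO, Dicer_KO and Dgcr8_KO, and only the last 2 of these overlapped. Drosha_KO and Dicer_KO rested on 4 to 11 counts a library, however, and their exact 95% counting intervals overlapped.

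The log2 fold change of miR-99b-5p was -4.45 in Dgcr8_KO (SE 0.34, edgeR adjusted p = 1.86e-06, a mean level 22.1-fold lower). It was -3.95 in Dicer_KO (SE 0.40, edgeR adjusted p = 8.83e-06, 15.7-fold lower) and -3.11 in Drosha_KO (SE 0.37, edgeR adjusted p = 3.10e-05, 8.65-fold lower). In Ago12_KO it was -2.05 (SE 0.30, edgeR adjusted p = 0.000209, 4.15-fold lower). With the median of all entries taken off, the values were -4.04 for Dgcr8_KO, -2.24 for Drosha_KO, -2.04 for Ago12_KO and -1.18 for Dicer_KO. The 4 calls held under every alternative tried, the highest adjusted p being 0.00323, in Ago12_KO.

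miR-99b-3p, the other strand of the same hairpin, was less abundant than the 5p strand in WT. Its levels were 109.4 and 108.5 CPM in WT, 42.9 and 100.3 CPM in Ago12_KO, 10.4 and 22.0 CPM in Dgcr8_KO, 25.3 CPM and none in Drosha_KO, and none in both Dicer_KO libraries. All 8 mutant libraries lay below both WT libraries. It fell in Dgcr8_KO (-2.67 on the log2 scale, SE 0.58, edgeR adjusted p = 0.00200). That call held under every alternative tried.

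In Drosha_KO a single count of miR-99b-3p stood in replicate 1 and none in replicate 2. The edgeR log2 fold change was -3.10 (SE 1.15, adjusted p = 0.0409), and it did not pass with DESeq2's size factors (0.0518); leaving out Drosha_KO replicate 2 raised the adjusted p to 0.188, WT replicate 1 to 0.0762 and WT replicate 2 to 0.0740. In Dicer_KO, with no count in 2 libraries, the level was at least 3.01-fold lower (floor of 3 counts over the group, edgeR adjusted p = 0.0119), and the adjusted p became 0.0868 with DESeq2's size factors, 0.0819 without Dicer_KO replicate 1 and 0.0543 without replicate 2. In Ago12_KO miR-99b-3p had a log2 fold change of -0.66 (SE 0.49, edgeR adjusted p = 0.274), which did not pass the test, but passed as lower in 3 of 20 alternatives. The 5p strand of the hairpin was called there, which by itself does not show that the 2 strands differed.

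miR-125a-5p, the strand that carries the lin-4 seed, had another order of levels over the groups than miR-99b-5p, whose hairpin is 554 bases away. Its levels were 1691 and 1590 CPM in WT (3988 and 3090 counts), 1053 and 1060 CPM in Dgcr8_KO (305 and 433 counts), and 1038 and 1042 CPM in Drosha_KO (41 and 42 counts). They were 44.2 and 240.2 CPM in Dicer_KO (2 and 9 counts) and 2485 and 2668 CPM in Ago12_KO (868 and 612 counts). The order was Ago12_KO, WT, Dgcr8_KO, Drosha_KO and Dicer_KO, with no overlap between neighbours, although Dgcr8_KO and Drosha_KO lay within counting error of each other.

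Against WT the test called miR-125a-5p in Dicer_KO, with a log2 fold change of -3.59 (SE 0.50, edgeR adjusted p = 9.81e-05, 11.5-fold lower), and this call held in all 19 alternatives. The median of all entries in Dicer_KO was -2.78, so miR-125a-5p lay not far below the typical entry. The log2 fold change was -0.63 in Dgcr8_KO (SE 0.37, edgeR adjusted p = 0.140) and -0.66 in Drosha_KO (SE 0.39, edgeR adjusted p = 0.166), both close to the medians of all entries there. In Ago12_KO it was 0.65 (SE 0.37, edgeR adjusted p = 0.152), and -2.26 without scaling. These 3 values depended on the fit. The Dgcr8_KO value passed, always below WT, in 8 of 20 alternatives: with TMM factors (adjusted p = 0.0481), without scaling, with only the 2 groups fitted (0.00136), with DESeq2 under either scaling, without Dicer_KO replicate 1 (0.0284) or replicate 2 (0.0286), and without the Drosha_KO and Dicer_KO libraries. The Drosha_KO value passed, also below WT, in 6 of 19: with TMM factors (0.0200), without scaling, with DESeq2 under either scaling, and without Dicer_KO replicate 1 (0.0391) or replicate 2 (0.0393). The Ago12_KO value passed as higher with only the 2 groups fitted (0.0380), with DESeq2 under either scaling, and without Dicer_KO replicate 1 (0.0337) or replicate 2 (0.0339). A fit without the 4 Drosha_KO and Dicer_KO libraries, chosen after seeing the data, gave an adjusted p of 0.0146 in Ago12_KO.

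Because both are read from the same library, the share of miR-99b-5p in the sum of miR-99b-5p and miR-125a-5p counts does not depend on the scaling. It was 56.4% (exact Clopper-Pearson 95% interval 55.4 to 57.4) and 54.8% (53.6 to 55.9) in the WT libraries. It was 6.73% (4.26 to 10.01) and 9.41% (6.95 to 12.4) in Dgcr8_KO, 16.3% (7.32 to 29.7) and 20.8% (10.8 to 34.1) in Drosha_KO, and 15.5% (13.3 to 17.8) and 16.7% (14.1 to 19.6) in Ago12_KO. All 6 of these mutant libraries lay below both WT libraries, and their intervals did not reach the WT ones. In Dicer_KO the share was 77.8% (40.0 to 97.2) in replicate 1 and 30.8% (9.09 to 61.4) in replicate 2, on 9 and 13 counts, which does not tell it from WT at this depth. The intervals cover counting error only, and with 2 libraries against 2 an exact permutation test cannot go below p = 0.333 (two-sided), so no test of this share is given.

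**Figure D3:**
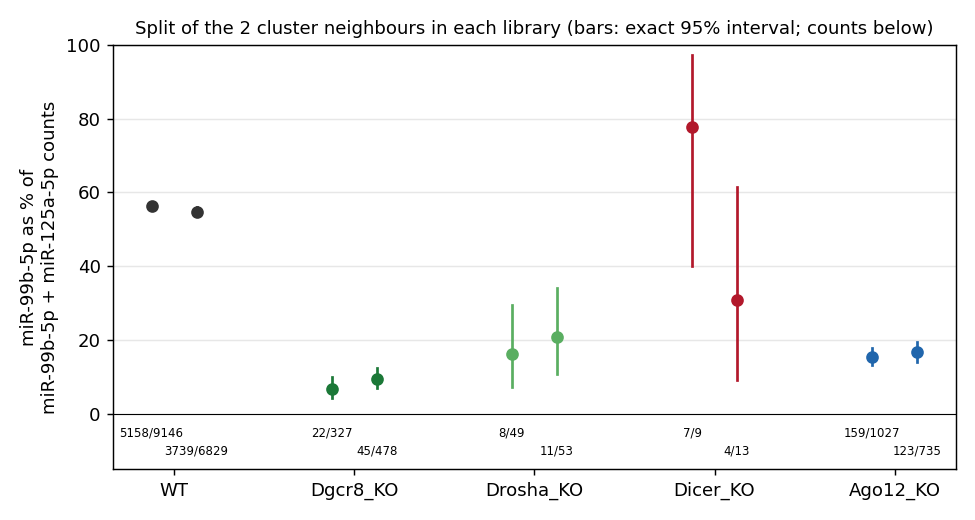
Share of miR-99b-5p in the summed counts of miR-99b-5p and miR-125a-5p, in percent, for every library, with exact 95% intervals as bars and the first count over the sum printed below (replicate 1 above replicate 2). The WT libraries sit at 54.8% and 56.4%, those of Dgcr8_KO, Drosha_KO and Ago12_KO between 6.73% and 20.8%, and the Dicer_KO libraries have wide intervals.

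miR-125a-3p, the strand of the hairpin seldom seen in WT, rose in Ago12_KO. Its levels were 31.0 and 24.2 CPM in WT (73 and 47 counts) and 140.3 and 117.7 CPM in Ago12_KO (49 and 27 counts), so that the groups did not overlap. Only the Ago12_KO libraries reached the 38.5 CPM of the filter. The entry was thus tested only because it was high there, and its call as higher carries that selection. The log2 fold change was 2.22 (SE 0.39, edgeR adjusted p = 0.000758, 4.68-fold higher) with column totals, and -0.66 without scaling, the 1 alternative of 20 in which it was not called higher. In Dgcr8_KO the levels were 10.4 and 17.1 CPM and the log2 fold change -0.95 (SE 0.50, edgeR adjusted p = 0.110). Drosha_KO had no count of it, and there the floor lies above the WT level, so no fold is given. Dicer_KO had 1 count in each library (22.1 and 26.7 CPM, edgeR adjusted p = 0.859).

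The balance of the 2 strands within a hairpin was tested with limma on the log2 ratio of 5p to 3p counts (0.5 added to each), over hairpins with at least 20 counts per arm on average in each of the groups compared. For miR-125a the ratio of 5p to 3p counts was 54.6 and 65.7 in WT, 101.7 and 61.9 in Dgcr8_KO, and 17.7 and 22.7 in Ago12_KO. The 3p strand thus made up 1.80% and 1.498% of the hairpin's counts in WT and 5.34% and 4.23% in Ago12_KO, without overlap. The log2 ratio differed by -1.59 (SE 0.62), with a limma adjusted p of 0.0670 over 73 hairpins, of which 16.4% were called higher and 27.4% lower in Ago12_KO. It did not pass the test, but passed with 1 added in place of 0.5 (adjusted p = 0.0343) and without Dicer_KO replicate 1 or replicate 2 (0.00866 in both).

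The hairpin of miR-99b had too few counts for that test. Its ratio of 5p to 3p counts was 19.99 and 17.7 in WT, 7.33 and 5 in Dgcr8_KO and 10.6 and 5.35 in Ago12_KO, below WT in all 4 of these mutant libraries. The 3p strand made up 4.76% and 5.34% of its counts in WT and 8.62% and 15.8% in Ago12_KO. With the minimum lowered to 10 counts per arm, the Ago12_KO difference was -1.35 (limma adjusted p = 0.138).

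miR-125b-5p, the second carrier of the lin-4 seed, stayed far below miR-125a-5p in WT and was highest in Dgcr8_KO. Its levels were 38.6 and 40.1 CPM in WT (91 and 78 counts), 69.1 and 102.8 CPM in Dgcr8_KO (20 and 42 counts), and 50.6 and 49.6 CPM in Drosha_KO (2 counts each). Dicer_KO had 2 counts in replicate 1 and none in replicate 2, and Ago12_KO 22.9 and 8.72 CPM (8 and 2 counts). The Dgcr8_KO libraries lay above both WT libraries and the Ago12_KO libraries below both.

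In Dgcr8_KO the log2 fold change of miR-125b-5p was 1.14 (SE 0.45, edgeR adjusted p = 0.0377) with column totals, but -1.44 without scaling. The call ended with TMM factors (adjusted p = 0.111), with DESeq2's size factors (0.0509), with the replicate number as a block (0.0638), without Dgcr8_KO replicate 1 (0.0575) or replicate 2 (0.275), and without WT replicate 1 (0.164) or replicate 2 (0.141). The other comparisons with WT did not pass: the log2 fold change was 0.35 in Drosha_KO (SE 0.83, edgeR adjusted p = 0.731; -0.27 with TMM factors), -0.71 in Dicer_KO (SE 1.01, adjusted p = 0.578) and -1.21 in Ago12_KO (SE 0.58, adjusted p = 0.0974). In Dicer_KO DESeq2's size factors turned it to 0.66.

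Among the 1623 entries with a RefSeq sequence of their name, 1 more with counts carries the miR-125 seed, miR-351-5p.
miR-351-5p: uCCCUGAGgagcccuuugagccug

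Its levels were 467 and 654 CPM in WT and 638 and 1334 CPM in Ago12_KO. No comparison with WT called it in the fit to all groups: the log2 fold change was -0.87 in Dgcr8_KO (edgeR adjusted p = 0.0569), -0.78 for Drosha_KO (0.162), -1.20 in Dicer_KO (0.0524; 0.20 with DESeq2's size factors) and 0.81 in Ago12_KO (0.0872; -2.16 without scaling). TMM factors brought the first 3 below the threshold, with adjusted p values of 0.0169, 0.0200 and 0.0224. In all it passed as lower in 10 of 20 alternatives in Dgcr8_KO and in 8 of 19 in Dicer_KO. Among these were fits with only the 2 groups (0.00180 and 0.0147), those without Drosha_KO replicate 1 (0.0354 and 0.0375) or replicate 2 (0.0343 and 0.0371), and those without Ago12_KO replicate 1 (0.0178 and 0.0198) or replicate 2 (0.0159 and 0.0192). Without Ago12_KO replicate 1 it passed as higher in Ago12_KO (0.0106). The other 3 entries found to share a seed with any of the 9 (miR-6367, miR-6394 and miR-99a-3p) had no count in any library. Entries without a RefSeq sequence of their name were not searched.

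The 2 miR-10 entries share their seed, and their mature forms differ at 1 base, but their levels were in another order over the groups. miR-10a-5p had levels of 161 and 130.2 CPM in WT (380 and 253 counts), 591 and 540.8 CPM in Dgcr8_KO (171 and 221 counts), and 101.2 and 174 CPM in Drosha_KO (4 and 7 counts). It had 995 and 694 CPM in Dicer_KO (45 and 26 counts) and 17.2 and 91.5 CPM in Ago12_KO (6 and 21 counts). Dicer_KO was highest, then Dgcr8_KO, both above WT without overlap; Drosha_KO spanned the WT values, and Ago12_KO lay below them.

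With column totals miR-10a-5p rose in Dicer_KO by a log2 fold change of 2.54 (SE 0.49, edgeR adjusted p = 0.00110, 5.80-fold higher), 5.32 above the median of all entries, and it was higher in 18 of 19 alternatives but -3.15 without scaling. In Dgcr8_KO the log2 fold change was 1.95 (SE 0.45, edgeR adjusted p = 0.00236, 3.88-fold higher), called in 19 of 20 alternatives and -0.69 without scaling. Drosha_KO did not differ from WT beyond the spread (-0.081, SE 0.68, edgeR adjusted p = 0.920), and its sign turned under DESeq2's size factors (0.046). In Ago12_KO miR-10a-5p fell by 1.54 on the log2 scale (SE 0.54, edgeR adjusted p = 0.0297, 2.68-fold lower). That call ended without Ago12_KO replicate 1 (-0.67, adjusted p = 0.191), WT replicate 1 (0.122), WT replicate 2 (0.0666), Dgcr8_KO replicate 1 (0.0502) or replicate 2 (0.0503), and when only the 2 groups were fitted (0.0861).

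miR-10b-5p was lowest in WT, at 54.3 and 65.3 CPM (128 and 127 counts). Its levels were 392 and 898 CPM in Ago12_KO (137 and 206 counts), 398 and 320.2 CPM in Dicer_KO (18 and 12 counts), 152 and 372 CPM in Drosha_KO (6 and 15 counts), and 104 and 115 CPM in Dgcr8_KO (30 and 47 counts). All 8 mutant libraries lay above both WT libraries in CPM. Ago12_KO, Dicer_KO and Drosha_KO overlapped with their neighbours in the order of levels, and Dgcr8_KO lay apart from Drosha_KO above it and WT below it.

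In Ago12_KO miR-10b-5p had a log2 fold change of 3.42 (SE 0.44, edgeR adjusted p = 9.44e-05, 10.8-fold higher), called in 19 of 20 alternatives and 0.43 (adjusted p = 0.421) without scaling. It was 2.59 in Dicer_KO (SE 0.52, edgeR adjusted p = 0.00147, 6.004-fold higher), 5.37 above the median of all entries, and -3.08 without scaling. In Drosha_KO it was 2.13 (SE 0.56, edgeR adjusted p = 0.00716, 4.38-fold higher), but 1.34 (adjusted p = 0.176) without Drosha_KO replicate 2 and -3.59 without scaling. In Dgcr8_KO the value was 0.87 (SE 0.44, edgeR adjusted p = 0.0947), which did not pass. It passed as higher in 3 of 20 alternatives and was -1.72 without scaling.

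Within a library, the share of miR-10a-5p in the sum of both miR-10 counts does not depend on scaling. It was 74.8% (exact 95% interval 70.8 to 78.5) and 66.6% (61.6 to 71.3) in WT, and 85.1% and 82.5% in Dgcr8_KO. In Ago12_KO it was 4.196% (1.56 to 8.91) and 9.25% (5.82 to 13.8), far below WT in both libraries. In Drosha_KO it was 40.0% (12.2 to 73.8) and 31.8% (13.9 to 54.9) on 10 and 22 counts, and in Dicer_KO it was 71.4% and 68.4%, within the range of the WT libraries. Thus miR-10a-5p made up most of the 2 entries' counts in WT, Dgcr8_KO and Dicer_KO, and miR-10b-5p in Ago12_KO. In Drosha_KO miR-10b-5p had the larger count in both libraries, but both intervals include an equal split.

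**Figure D4:**
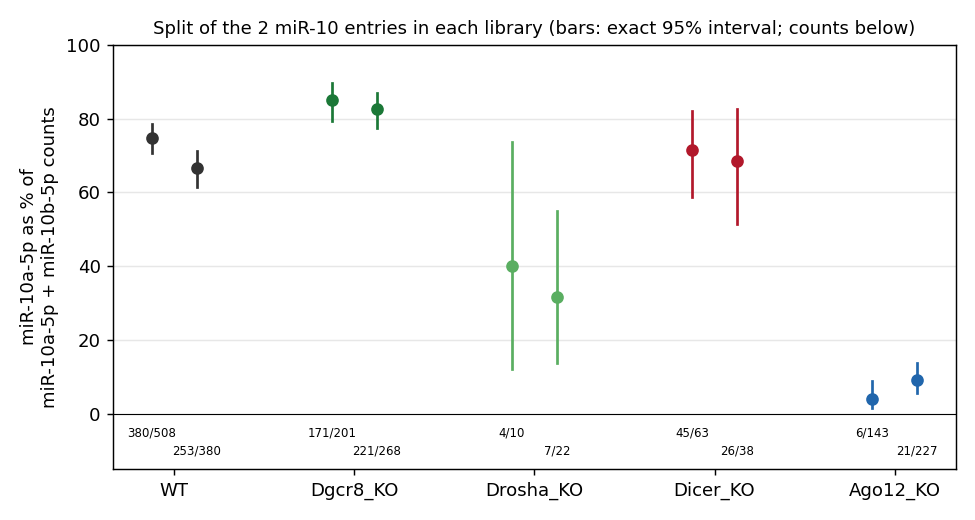
Share of miR-10a-5p in the summed counts of miR-10a-5p and miR-10b-5p, in percent, for every library, with exact 95% intervals as bars and the first count over the sum printed below (replicate 1 above replicate 2). The Ago12_KO libraries sit at 4.196% and 9.25%, those of WT at 66.6% and 74.8%, and the Dicer_KO libraries at 68.4% and 71.4%.

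Summed by family, the 5p strands of miR-99/100 took 0.206% of counts in WT and between 0.00931% (Dgcr8_KO) and 0.0496% (Ago12_KO) in the mutants. Those of miR-125 took 0.168% in WT, 0.0164% in Dicer_KO and 0.259% in Ago12_KO. Those of miR-10 took 0.0205% in WT, 0.0399% in Drosha_KO, 0.0675% in Dgcr8_KO, 0.0699% in Ago12_KO and 0.120% in Dicer_KO. By mean share the order of the families differed by group, with miR-10 the largest of the 3 in Dicer_KO, miR-125 in Dgcr8_KO, Drosha_KO and Ago12_KO, and miR-99/100 in WT.

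The mutants were also compared with one another, which removes WT but shares the mutant libraries with the comparisons above. Between Dgcr8_KO and Drosha_KO, which lack the 2 partners of the nuclear cutting complex, edgeR called 0 of the 7 entries, against 5.61% of all entries higher and 8.32% lower in Dgcr8_KO. At an unadjusted p under 0.05 the number was 3 (miR-99b-5p, miR-10a-5p and miR-10b-5p), and DESeq2 called 1 entry higher and 1 lower. The log2 fold change was 2.04 toward Dgcr8_KO for miR-10a-5p (edgeR adjusted p = 0.0562), -1.34 for miR-99b-5p (adjusted p = 0.0523) and 0.023 for miR-125a-5p (SE 0.39, adjusted p = 1). miR-125a-3p, with no count in Drosha_KO, had an adjusted p of 0.336, and both groups lay under the Drosha_KO floor, so no fold is given.

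Dicer_KO against Drosha_KO compares loss of the second cut with loss of the first. miR-10a-5p was higher in Dicer_KO by 2.62 (SE 0.66, edgeR adjusted p = 0.00832) and miR-125a-5p lower, at -2.93 (SE 0.52, adjusted p = 0.000831), so 1 of 7 was called in each direction, against 13.5% of all entries higher and 30.4% lower. The miR-10a-5p call ended without Dicer_KO replicate 1 (adjusted p = 0.0621). Both miR-99b strands, miR-125a-3p, miR-125b-5p and miR-10b-5p did not pass, and no library of these 2 groups held more than 45 counts of any of the 7 entries.

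Ago12_KO against Dicer_KO compares loss of 2 proteins that hold the mature strand with loss of the enzyme that makes it. The entries from the chromosome 17 cluster were higher in Ago12_KO: miR-125a-5p by 4.24 (edgeR adjusted p = 4.69e-05), miR-125a-3p by 2.41 (0.0256), miR-99b-5p by 1.90 (0.00338), and miR-99b-3p at least 1.81-fold (0.0386). The median log2 fold change of all entries was 2.38 here. Against that base miR-125a-5p lay above the typical entry, miR-125a-3p close to it and miR-99b-5p below it. miR-10a-5p was lower, at -4.08 (edgeR adjusted p = 0.000168), but its adjusted p was 0.0518 without scaling. The 4 of 7 higher and 1 of 7 lower compare with 38.5% and 8.94% of all entries. Of the 4, miR-125a-3p passed the filter only through its Ago12_KO libraries. The calls of miR-99b-5p, miR-99b-3p and miR-125a-3p did not hold with DESeq2's size factors. That of miR-99b-3p also ended without either Dicer_KO library, Ago12_KO replicate 2 or either WT library (adjusted p 0.0525 to 0.160), and that of miR-125a-3p without either Dicer_KO library or Ago12_KO replicate 1 (0.0569 to 0.129). TMM factors ended both (0.0630), and the miR-125a-3p call also ended with no filter (0.0838) and in DESeq2 with column totals (0.0603). miR-10b-5p and miR-125b-5p did not pass.

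Of the 7 let-7 entries listed for the same clusters, 4 could be tested. By its name let-7a-1-3p, among the 4, comes from another hairpin than Mirlet7a-2, which lies in the cluster of Mir100. The entry let-7a-2-3p had no count in any library. Of the 4, 2 rose and 1 fell in Dgcr8_KO (all entries: 32.4% higher and 41.0% lower), 1 fell in Drosha_KO (26.2% and 31.6%), 1 fell in Dicer_KO (13.3% and 42.6%), and 1 rose in Ago12_KO (28.7% and 25.8%). The rise in Ago12_KO and 1 of the 2 rises in Dgcr8_KO were those of let-7a-1-3p, which passed the filter only through its Ago12_KO libraries. let-7e-5p, from the hairpin between those of miR-99b and miR-125a, is printed because it completes that cluster.
let-7e-5p: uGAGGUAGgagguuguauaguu

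let-7e-5p had 83.6 and 72.5 CPM in WT, 34.4 and 61.03 CPM in Ago12_KO, 1 count and none in Dicer_KO, none and 1 count in Dgcr8_KO, and none in Drosha_KO. It fell in Dgcr8_KO (-5.58 on the log2 scale, SE 0.84, edgeR adjusted p = 0.000199), while in Drosha_KO it was at least 2.09-fold lower (adjusted p = 0.0170; 0.0699 without Drosha_KO replicate 1 and 0.0656 without replicate 2). The differences in Dicer_KO (adjusted p = 0.0635) and Ago12_KO (-0.75, adjusted p = 0.206) did not pass. In Dgcr8_KO, then, the first 2 hairpins of the cluster had lower mature strands while miR-125a-5p, from the third, did not pass the test.

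let-7c-5p, made in part from the hairpin next to Mir99a, went the other way in Dgcr8_KO, with 580.2 and 602 CPM against 141 and 109.1 CPM in WT (log2 fold change 2.24, edgeR adjusted p = 0.000117; -0.39 without scaling). It fell in Dicer_KO (-1.77, adjusted p = 0.0455) on 1 and 2 counts, a call lost without either Dicer_KO, WT or Dgcr8_KO replicate (adjusted p 0.0532 to 0.285) and with DESeq2's size factors (0.716). let-7a-1-3p rose in Ago12_KO (3.31, edgeR adjusted p = 0.000571, and 0.45 without scaling), the only group through which it passed the filter, so this call carries that selection. It also rose in Dgcr8_KO (2.00, edgeR adjusted p = 0.0144; -0.54 without scaling), a call lost without Dgcr8_KO replicate 2 (0.313) or WT replicate 2 (0.0561). let-7a-5p was not called against WT in any group. None of the 6 other arms of the members' hairpins passed the filter: miR-125b-1-3p had 15 and 23 counts in WT, 9 and 7 in Dgcr8_KO, 2 and 3 in Ago12_KO and none in Drosha_KO or Dicer_KO.

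Among 4 further entries from Hox clusters 1 passed the filter, miR-196a-5p. Its levels were 624 and 564 CPM in WT, 34.5 and 56.3 CPM in Dgcr8_KO, and 240.5 and 323 CPM in Ago12_KO, with no count in Drosha_KO. It fell in Dgcr8_KO (-3.67, edgeR adjusted p = 3.29e-05), in Drosha_KO (at least 15.9-fold lower, adjusted p = 0.000119) and in Ago12_KO (-1.08, adjusted p = 0.0251), and did not pass in Dicer_KO (-0.55, adjusted p = 0.284). The Dicer_KO value turned to 0.86 with DESeq2's size factors, and the Ago12_KO call ended without Ago12_KO replicate 1 (adjusted p = 0.0956), WT replicate 1 (0.132) or WT replicate 2 (0.0918).

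The entries most like a given miRNA were taken as those with the highest Pearson r of log2 CPM over the 10 libraries, as a description with no test, since the libraries share groups and depth. For miR-99b-5p they were miR-3078-5p (r = 0.952), miR-27b-3p (0.948), miR-293-3p (0.947), miR-341-5p (0.931) and miR-363-5p (0.916). For miR-125a-5p they were miR-140-3p (0.977), miR-378a-3p (0.9498), miR-669a-3p (0.941), miR-141-3p (0.937) and miR-669o-3p (0.936). For miR-10a-5p the likeness was weaker, led by miR-208a-3p (0.875) and then miR-7003-3p (0.695), miR-6967-5p (0.691), miR-5133 (0.666) and miR-3963 (0.656). miR-3963, the last of these, had a mean of 2566 CPM in WT and 288466 CPM in Dicer_KO, a large share of the counts there. Its mean was also above WT in Drosha_KO (17414 CPM) and Ago12_KO (10467.5 CPM), where that of miR-10a-5p was not.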

How the data were processed

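The deposited values are the authors' raw counts of reads for each mature miRNA entry, without normalization. Bowtie and the build mm10 are named in the submitters' processing notes. Not given in the sources used here are the Bowtie version, how reads were counted or shared between entries, and the miRBase release. The 10 columns were matched to samples by their titles, or for WT by the description field. The quasi-likelihood test of edgeR 4.0.16 (under R 4.3.3) was fitted once to all 5 groups, leaving 5 residual degrees of freedom. Library sizes were the column totals, and Benjamini-Hochberg adjustment ran over 481 of 1907 entries kept by filterByExpr (minimum count 10, minimum total 15, 38.5 CPM). Standard errors were derived from fold changes and F values. Arm balance used limma 3.58.1, and DESeq2 1.42.0 was an alternative. Scripts were tested on simulated data. Intervals are exact at 95%. Total counts per library run from 37476 to 2357868. Replicate numbers do not pair groups by anything the labels state.

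The members and lists were chosen with earlier results of these data known. Named were all 9 members whatever their values, the other arms of their hairpins, let-7 entries listed for the same clusters and further Hox cluster miRNAs. Also named were entries with a member's seed, and the 5 tested entries most correlated with each of the 3 members highest in WT. The let-7 list held let-7a-1-3p, which by its name is not from Mirlet7a-2, the let-7a hairpin of those clusters. Alternatives changed the scaling, filter, groups fitted, tool and replicate block, or left out each library.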

Additional observations from a re-analysis of the deposited data

How the results depend on the processing

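In every mutant miR-99b-5p stayed lower than WT, and called, under all alternatives tried, as did miR-99b-3p in Dgcr8_KO and miR-125a-5p in Dicer_KO. Leaving depth unscaled, which turns the 6.16-fold to 53.9-fold gaps in library totals into fold changes, moved most values; the cause of other changes was not tested. With 1 count worth up to 26.7 CPM in Drosha_KO and Dicer_KO, values there near the WT levels of miR-125a-3p and miR-125b-5p rest on 0 to 2 counts a library.

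Entries called in Dicer_KO against WT were 269, and 435 without scaling. For Dgcr8_KO against Drosha_KO 67 were called, 353 without scaling and 107 with DESeq2; for Dicer_KO against Drosha_KO 211, and 112 with only the 2 groups fitted; for Ago12_KO against Dicer_KO 228, 146 with DESeq2's size factors in edgeR and 358 without scaling. Splits of all calls into higher and lower moved by over 10 points as follows. Without scaling, 156 and 197 became 51 and 329 in Dgcr8_KO, 126 and 152 became 5 and 399 in Drosha_KO, 64 and 205 became 6 and 429 in Dicer_KO, and 138 and 124 became 16 and 336 in Ago12_KO. With TMM the Ago12_KO split was 109 and 179, and with DESeq2's size factors the Dicer_KO split was 84 and 106. For Dgcr8_KO against Drosha_KO 27 and 40 became 38 and 35 with TMM and 348 and 5 without scaling. With DESeq2's size factors 65 and 146 became 99 and 90 for Dicer_KO against Drosha_KO, and 185 and 43 became 70 and 76 for Ago12_KO against Dicer_KO, where no scaling gave 352 and 6. DESeq2 itself, with its own size factors, gave 100 and 102 in Dicer_KO and 31 and 76 for Dgcr8_KO against Drosha_KO. It gave 118 and 88 for Dicer_KO against Drosha_KO and 70 and 87 for Ago12_KO against Dicer_KO. The split for Dgcr8_KO against Drosha_KO also moved by over 10 points without Drosha_KO replicate 2.

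Of the 7 entries, those called higher in Dgcr8_KO were 1 with TMM, 1 with DESeq2's size factors, 1 with the replicate number as a block and 0 without scaling; those called lower were 4 with TMM and 6 without scaling. In Drosha_KO 0 were higher without scaling, and 4 lower with TMM, 1 with DESeq2's size factors and 7 without scaling. In Dicer_KO 0 were higher and 7 lower without scaling. In Ago12_KO 0 were higher without scaling, and 4 lower with TMM, 5 without scaling and 1 with only the 2 groups fitted. For Dgcr8_KO against Drosha_KO 1 was higher with TMM, with no filter, with only the 2 groups and with DESeq2, and 7 without scaling; 1 was lower with either DESeq2 scaling. For Dicer_KO against Drosha_KO 2 were higher with DESeq2's size factors. For Ago12_KO against Dicer_KO 2 were higher with TMM and 1 with DESeq2's size factors, and 0 lower without scaling.

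Values that changed sign without scaling were, in Dgcr8_KO, miR-125b-5p (-1.44), miR-10a-5p (-0.69), miR-10b-5p (-1.72), let-7c-5p (-0.39), let-7a-5p (-2.28) and let-7a-1-3p (-0.54); in Drosha_KO, miR-125b-5p (-5.32, and -0.27 with TMM), miR-10b-5p (-3.59) and let-7a-5p (-4.15); in Dicer_KO, miR-10a-5p (-3.15), miR-10b-5p (-3.08) and let-7a-1-3p (-3.94); in Ago12_KO, miR-125a-5p (-2.26), miR-125a-3p (-0.66), let-7c-5p (-2.12), let-7a-5p (-2.03) and miR-351-5p (-2.16); for Dgcr8_KO against Drosha_KO, miR-99b-5p (1.80) and miR-10b-5p (1.86); and for Ago12_KO against Dicer_KO, miR-125b-5p (2.19). With DESeq2's size factors, in edgeR and in DESeq2, they were miR-10a-5p in Drosha_KO (0.046 and 0.043), in Dicer_KO miR-125a-3p (1.19), miR-125b-5p (0.66), miR-196a-5p (0.86 and 0.87) and miR-351-5p (0.20 and 0.21), miR-125a-5p for Dgcr8_KO against Drosha_KO (-0.15 and -0.14), miR-99b-5p (0.41) and miR-125b-5p (0.18) for Dicer_KO against Drosha_KO, and miR-10b-5p for Ago12_KO against Dicer_KO (-0.82). DESeq2 gave let-7a-1-3p in Drosha_KO 0.20, and 0.067 with column totals.

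Leaving out 1 library gave 1 to 3 higher entries in Dgcr8_KO, 0 to 1 higher and 1 to 3 lower in Drosha_KO, and 1 to 3 lower in Ago12_KO. For Dgcr8_KO against Drosha_KO it gave 29 to 91 entries called, with 0 to 1 of the 7 in each direction; for Dicer_KO against Drosha_KO 0 to 1 higher; and for Ago12_KO against Dicer_KO 145 to 243 entries called and 2 to 4 of the 7 higher. The sign turned for miR-10a-5p in Drosha_KO (-0.52 to 0.25), miR-125a-3p in Dicer_KO (-0.35 to 0.0015), miR-125b-5p in Dicer_KO (-7.65 to 0.17), let-7a-5p in Dgcr8_KO (-1.86 to 1.40), let-7a-1-3p in Dicer_KO (-4.54 to 2.28), miR-99b-3p for Dgcr8_KO against Drosha_KO (-0.27 in 1 case, -0.58 to 6.44 in all), miR-10b-5p for Dicer_KO against Drosha_KO (-0.043 to 1.25) and miR-125b-5p for Ago12_KO against Dicer_KO (-1.45 to 6.43). The miR-125a arm difference was -1.59 with a pseudocount of 1 and -1.76 to -1.42 over left-out libraries.

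The replicate block, with same-numbered deviations correlated at -0.065 to 0.136, took away the miR-125b-5p call in Dgcr8_KO (1.14, adjusted p = 0.0638) and the let-7c-5p call in Dicer_KO (adjusted p = 0.0608), brought miR-351-5p in Dicer_KO under the threshold (0.0412), and changed no other call of an entry named here.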
